A study of Mus musculus with 16 samples.

Results

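The integrin chains of tumour myeloid cells were described here as 10 genes, selected by symbol from 24421 genes: Itgam, Itgax, Itgal and their partner Itgb2, the alpha chains Itga4, Itga5, Itga6 and Itgav, and the beta chains Itgb1 and Itgb5. All 10 were present in the count files and all 10 passed the filter on low counts, as did 9642 genes in all. RNA was sequenced from CD11b+ cells (live CD45+ TER119- Kaede+ NK1.1-) sorted from subcutaneous MC38-Ova tumours, a mouse colon adenocarcinoma line carrying ovalbumin, in C57BL/6 Kaede mice aged 8 to 14 weeks. The tumours were exposed to violet light 13 days after injection, which turned the Kaede protein of the host cells in the tumour from green to red, so that Kaede-red cells had been in the tumour since then and Kaede-green cells had entered later. Each colour was collected 24h and 72h after photoconversion, which gave 4 groups of 4 libraries each. All libraries carried the same control label for treatment and the same batch label. The labels do not say whether a Kaede-green and a Kaede-red library with the same number came from 1 tumour. The replicates of a group were tumours of separate mice, as the study describes them.

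Integrins are surface receptors made of an alpha and a beta chain, which bind matrix proteins or ligands on other cells and link them to the actin cytoskeleton. On leukocytes the beta-2 family (Itgb2, CD18) pairs with alpha-L (Itgal, CD11a), which binds ICAMs, with alpha-M (Itgam, CD11b), which binds complement fragments and fibrinogen, and with alpha-X (Itgax, CD11c). Itga4 with Itgb1 (VLA-4) binds VCAM-1 and fibronectin and serves entry of monocytes from blood, while Itga5 with Itgb1 is the classical fibronectin receptor. CD11b protein was itself the sort gate, so Itgam was measured in cells chosen for it.

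Between 3216858 and 15423085 counts were assigned per library. The ribosomal RNA precursor Rn45s took a median of 89.6% of them in Kaede-green libraries (79.0 to 93.4%) and 69.2% in Kaede-red libraries (55.8 to 84.9%), which left 468092 to 912689 other counts in Kaede-green and 758192 to 5472477 in Kaede-red libraries. The 10 integrins together had 472 to 1059 counts per Kaede-green library and 1423 to 22449 per Kaede-red library, so their Kaede-green values are less precise. The markers of the gate (Ptprc, Itgam, Csf1r, Lyz2, Adgre1, Cd68, Fcgr1, Cd14 and Tyrobp) were detected in all 4 groups, at a summed level of 686 to 2351 CPM (counts scaled to library size with TMM factors), while markers of T and NK cells summed to at most 5.71 CPM, of B cells to at most 2.45 CPM and of epithelial cells to at most 3.67 CPM. At an edgeR adjusted p under 0.05, 4 of the 9 gate markers were higher and 2 lower in Kaede-red libraries over both times. Of all tested genes 9.96% were higher and 10.3% lower. Higher were Adgre1 (1.53 on the log2 scale), Cd68 (1.14), Csf1r (0.95) and Itgam (0.44), and lower were Lyz2 (-1.25) and Tyrobp (-1.10). At 24h the gate markers summed to 1016 to 2351 CPM in Kaede-green and 686 to 1124 CPM in Kaede-red libraries.

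The 3 alpha chains of the beta-2 family lie on mouse chromosome 7 (mm10), Itgal at 127296260-127335138, Itgam at 128062640-128118491 and Itgax at 128129547-128150657, and Itgb2 lies on chromosome 10 at 77530252-77565708. Itga4 (79255426-79333123), Itga6 (71745616-71858416) and Itgav (83724397-83806916) lie on chromosome 2. Itga5 is on chromosome 15 (103344286-103366763, the only member on the minus strand), Itgb1 on chromosome 8 (128685654-128733200) and Itgb5 on chromosome 16 (33829665-33949338). Exons of Itga4 overlap exons of Cerkl on the opposite strand and exons of Itgam overlap those of Gm49368, which the count files do not list. Whether counting used the strand is not given in the sources used here. How reads in the exon bases shared by Itga4 and Cerkl were counted is therefore not known.

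The 250 bases before the start site are shown for Itgam and Itga4, which both rose in Kaede-red cells from 24h to 72h, the former with and the latter without the letters GAGGAA, the core bound by the myeloid factor PU.1. The windows come from RefSeq (GRCm38.p6), which held 7 of the 10 members, and capitals mark GAGGAA or its reverse complement TTCCTC.
Itgam, chr7:128062390-128062639, plus strand: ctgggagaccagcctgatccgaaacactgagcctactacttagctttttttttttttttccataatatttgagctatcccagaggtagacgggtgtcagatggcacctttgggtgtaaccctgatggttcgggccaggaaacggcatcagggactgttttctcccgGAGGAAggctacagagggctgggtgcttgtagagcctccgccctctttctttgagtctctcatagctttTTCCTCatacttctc
Itga4, chr2:79255176-79255425, plus strand: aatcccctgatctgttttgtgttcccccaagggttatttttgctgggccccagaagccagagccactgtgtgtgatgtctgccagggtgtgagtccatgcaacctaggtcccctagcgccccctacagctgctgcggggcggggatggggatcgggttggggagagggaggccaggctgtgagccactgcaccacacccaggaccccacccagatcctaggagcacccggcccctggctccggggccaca
In Itgam the matches begin 84 and 15 bases before the start site. On either strand the motif was found in 4 of the 7 member windows (Itgam, Itga5, Itgav and Itgb1) and in 23.25% of 32851 promoter windows of the same length, and a match is a description of letters and not of binding.

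Levels between genes were compared as CPM per kilobase of exon. In Kaede-green cells at 24h Itgb2 (18.9 ± 3.33, SD, n = 4) and Itgam (15.2 ± 1.16) stood highest, with libraries whose values overlapped, and Itgb1 followed at 10.1 ± 1.66. Then came Itgb5 (2.63 ± 1.32), Itga4 (2.07 ± 0.296), Itga5 (2.06 ± 0.617), Itgal (1.79 ± 0.611), Itgax (1.65 ± 0.220) and Itgav (1.35 ± 0.430), neighbours that do not differ beyond their spread, and Itga6 was lowest at 0.354 ± 0.170. In Kaede-red cells at 72h the order began the same way, with Itgb2 at 34.5 ± 1.87, Itgam at 29.5 ± 2.30 and Itgb1 at 12.4 ± 0.908. Itgax came next at 6.30 ± 1.605, within its spread of Itga5 (5.63 ± 0.788) and Itgb5 (5.16 ± 0.538), and Itgal (3.28 ± 0.304), Itga4 (2.45 ± 0.147), Itgav (2.21 ± 0.364) and Itga6 (0.731 ± 0.110) followed, of which Itga4 and Itgav do not differ beyond their spread.

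**Figure D1:**
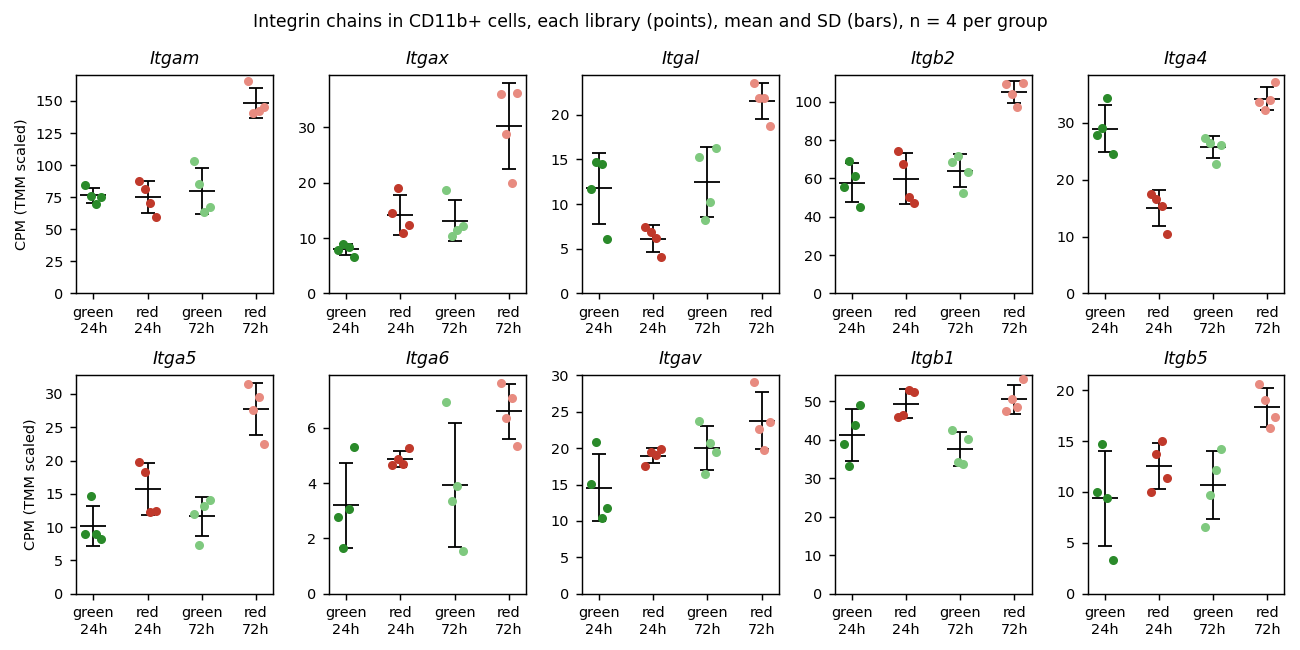
Level of the 10 integrin chains in each library (points, CPM after TMM scaling, linear axes from 0) by group, with the mean and SD as bars (n = 4 libraries). Itgam, Itgax, Itgal, Itgb2, Itga4 and Itga5 are highest in Kaede-red cells at 72h without overlap with Kaede-red cells at 24h, and Itga4 is lowest in Kaede-red cells at 24h.

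The first comparison asked which integrins differed with time spent in the tumour, and set the 8 Kaede-red libraries against the 8 Kaede-green ones. Of the 10 members 6 were higher and 0 lower at an edgeR adjusted p under 0.05 (called), against 9.96% of all tested genes called higher and 10.3% called lower. Itgax rose by 1.03 ± 0.18 (log2 fold change ± SE, edgeR adjusted p = 5.23e-05) and Itga5 by 0.94 ± 0.17 (edgeR adjusted p = 0.000135). Itga6 (0.69 ± 0.25), Itgb5 (0.59 ± 0.19), Itgam (0.44 ± 0.13) and Itgb2 (0.39 ± 0.14) rose by less, with edgeR adjusted p of 0.0468, 0.0301, 0.0191 and 0.0417. Not called were Itgb1 at 0.34 ± 0.13, Itgav at 0.33 ± 0.15, Itgal at -0.09 ± 0.18 and Itga4 at -0.27 ± 0.14. The median over the members was 0.41, beside 0.06 over all tested genes. In bulk RNA, fewer cells of a type and less RNA per cell cannot be told apart.

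The share of Rn45s and the exon length moved with this comparison. With the Rn45s share of each library in the fit 0 of the 10 members were called (Itgax 0.55, Itga5 0.58), and 156 of all 9642 tested genes. The share did not overlap between colours, at 24h (86.5 to 93.4% in green, 66.2 to 84.9% in red libraries) or at 72h (79.0 to 91.0% and 55.8 to 73.8%). This fit therefore cannot tell the share and the colour apart. With an offset for exon length, chosen after seeing the data, 2 members were called, Itgax at 0.88 and Itga5 at 0.79. Members are long genes: among the 6695 tested genes with at least the 3052 exonic bases of the shortest member, the median difference was 0.10, and among shorter genes -0.05. Scaling by library size only, with Rn45s in the totals, moved the median of all tested genes to 2.20, and Itgal (2.02) and Itga4 (1.91) then turned positive while lying under that median. Leaving out 1 library gave 2 to 6 calls, with 2 left on omitting Kaede-green 24h replicate 3, and 3 on omitting Kaede-red 24h replicate 2, Kaede-green 72h replicates 2 or 3, or Kaede-red 72h replicates 1 or 2. Of these 16 fits the call was lost in 13 for Itga6, 12 for Itgb2, 8 for Itgb5, 2 for Itgam and 0 for Itgax and Itga5. A call was gained in 2 for Itgb1 and in 1 for Itgav.

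At 24h the integrins split by direction. Itgax was higher in the red libraries, Itgal and Itga4 were lower, and the other 7 were not called, against 3.2% of all tested genes called higher and 4.3% called lower. Itga4, the VLA-4 alpha chain, stood at 27.9, 29.0, 34.5 and 24.5 CPM in the Kaede-green and at 17.4, 16.6, 15.4 and 10.4 CPM in the Kaede-red libraries, replicates 1 to 4 in each group. Every Kaede-red value lay under every Kaede-green value, as for 5.44% of all tested genes in that direction. The difference was -0.97 ± 0.20 on the log2 scale (edgeR adjusted p = 0.00186), and it was -1.23 with the Rn45s share in the fit (edgeR adjusted p = 0.00775), -0.99 with the exon length offset (edgeR adjusted p = 0.00143) and 1.41 by library size only. At 24h too the share did not overlap between the colours, so the fit with it cannot tell them apart for any member.

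Itgal, the LFA-1 alpha chain, was at 11.7, 14.7, 14.5 and 6.12 CPM in Kaede-green and at 7.44, 6.92, 6.15 and 4.06 CPM in Kaede-red libraries at 24h. Only the lowest Kaede-green library, replicate 4, lay within the Kaede-red range. The difference was -0.96 ± 0.28 (edgeR adjusted p = 0.0263). It was -1.32 with the Rn45s share in the fit and -1.10 with the length offset, -0.87 and no longer called with no filter on low counts (edgeR adjusted p = 0.0507), and 1.40 by library size only. Without 1 library it ran from -1.19 to -0.78, with the call lost without Kaede-green replicates 2 or 3 or Kaede-red replicates 3 or 4 (edgeR adjusted p up to 0.117).

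Itgax, the CD11c gene that is abundant in dendritic cells and in many tissue macrophages, went the other way at 24h. Its Kaede-green values were 7.80, 8.99, 8.42 and 6.53 CPM and its Kaede-red values 14.5, 19.1, 10.9 and 12.3 CPM, which did not overlap, as for 7.07% of all tested genes in that direction. The difference was 0.83 ± 0.26 (edgeR adjusted p = 0.0468), with 14 to 33 counts per Kaede-green library, and the adjusted p was above 0.05 in 12 of 16 fits with 1 library omitted, and the difference was 0.42 and not called with the Rn45s share in the fit. Summed markers of dendritic cells were at 7.15 to 15.04 CPM (green) and 8.70 to 14.3 CPM (red) at 24h. Of 4 tested markers of that list Ccr7 was called higher at 24h (edgeR adjusted p = 0.00538), with 0 counts in each of the 4 green and 6 to 22 in the red libraries. Over both times Ccr7 and Clec10a (1.54 ± 0.41) were called higher and Fscn1 (-0.54 ± 0.20) lower, and the part of these cells in the Itgax result was not tested. Itgam, at 69.9 to 84.1 CPM in Kaede-green and 59.5 to 87.9 CPM in Kaede-red cells, had a difference of -0.03 (95% interval -0.40 to 0.35).

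At 72h, 6 of the 10 integrins were higher in Kaede-red cells and 0 lower, against 8.07% and 8.76% of all tested genes, and 8 members did not overlap between the groups, against 13% of all tested genes higher without overlap. Itgam, the gate gene, read 103, 85.3, 63.7 and 67.2 CPM in Kaede-green and 165, 140, 142 and 145 CPM in Kaede-red libraries. Every Kaede-red value exceeded every Kaede-green one, by 0.90 ± 0.19 (edgeR adjusted p = 0.000973). Its partner Itgb2 was at 68.5, 71.9, 52.3 and 63.3 CPM against 109, 104, 97.5 and 110 CPM, again without overlap, and rose by 0.72 ± 0.19 (edgeR adjusted p = 0.00762).

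Itgax was at 18.6, 10.4, 11.4 and 12.2 CPM in Kaede-green and at 36.04, 28.8, 19.9 and 36.2 CPM in Kaede-red libraries at 72h, a rise of 1.23 ± 0.24 (edgeR adjusted p = 0.000342). The fibronectin receptor chain Itga5 gave 12.0, 7.31, 13.1 and 14.003 CPM against 31.4, 27.6, 29.6 and 22.4 CPM, and rose by 1.25 ± 0.24 (edgeR adjusted p = 0.000289). In both genes the lowest Kaede-red library lay above the highest Kaede-green library. Itgal, at 8.22 to 16.3 CPM in Kaede-green and 18.8 to 23.5 CPM in Kaede-red cells, was now higher in Kaede-red cells by 0.78 ± 0.25 (edgeR adjusted p = 0.0270), and Itgb5, a beta chain that pairs with alpha-V to bind vitronectin, by 0.76 ± 0.26 (edgeR adjusted p = 0.0435).

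Itga4 (0.42 ± 0.19), Itgb1 (0.43 ± 0.18), Itga6 (0.78 ± 0.33) and Itgav (0.25 ± 0.21) were not called at 72h. Itga4 and Itgb1 did not overlap between colours all the same, at 22.8 to 27.3 against 32.4 to 37.2 CPM for Itga4 and 33.8 to 42.6 against 47.4 to 55.8 CPM for Itgb1. With the Rn45s share in the fit 0 members were called at 72h (Itgam 0.76, Itga5 0.86, Itgax 0.68), and 102 of all 9642 tested genes. At 72h the share did not overlap between the colours, so that fit cannot tell them apart. With the length offset 4 members were called: Itgam, Itgax, Itgb2 and Itga5. The call of Itgal was lost without Kaede-green 72h replicates 2 or 3 or Kaede-red 72h replicates 1 or 2, and that of Itgb5 in 7 of the 16 fits that left out 1 library.

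**Figure D2:**
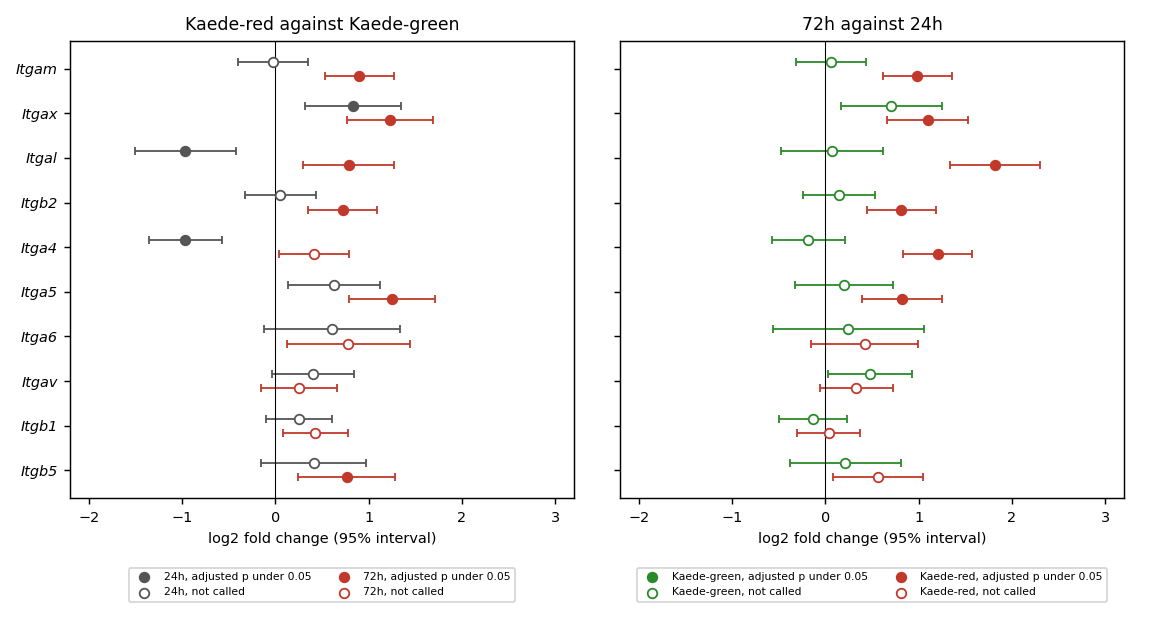
Log2 fold change of each integrin (points, with 95% intervals from the edgeR fit) for Kaede-red against Kaede-green cells at 24h and 72h (left) and for 72h against 24h in each colour (right). Filled points have an adjusted p under 0.05. Itgal and Itga4 lie left of 0 at 24h and right of it at 72h, and 6 members are filled for Kaede-red cells on the right where 0 are for Kaede-green cells.

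The beta-2 family, Itga4 and Itga5 rose in Kaede-red cells from 24h to 72h. Of the 10 members 6 were called higher and 0 lower, against 4.91% and 3.76% of all tested genes, and 8 did not overlap, against 11.8% of all tested genes. Itgal rose from 4.06 to 7.44 CPM at 24h to 18.8 to 23.5 CPM at 72h, by 1.82 ± 0.25 (edgeR adjusted p = 6.32e-05), a 3.52-fold difference. Itga4 rose by 1.20 ± 0.19 (edgeR adjusted p = 0.000458), Itgax by 1.10 ± 0.22 (edgeR adjusted p = 0.00279) and Itgam by 0.98 ± 0.19 (edgeR adjusted p = 0.00181). Itgb2, the beta chain they share except for Itga4, rose by 0.81 ± 0.19 (edgeR adjusted p = 0.00714) and Itga5 by 0.82 ± 0.22 (edgeR adjusted p = 0.0181).

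Itgb1, the partner of Itga4 and Itga5, differed by 0.03 ± 0.17 (95% interval -0.30 to 0.37) over the same interval, and Itgav by 0.33, Itga6 by 0.42 and Itgb5 by 0.56, none of them called. The 6 calls stood with the length offset, where the differences were 0.74 for Itga5 to 1.72 for Itgal, and 3 stood with the Rn45s share in the fit, Itgal at 1.65, Itga4 at 1.07 and Itgam at 0.93. The Kaede-red groups at 24h and 72h had Rn45s shares of 66.2 to 84.9% and 55.8 to 73.8%. The call of Itga5 was lost without Kaede-red 24h replicates 3 or 4 or Kaede-red 72h replicate 1 (edgeR adjusted p up to 0.0929).

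In Kaede-green cells 0 members were called between 72h and 24h by edgeR, where 0% of all tested genes were, and 0 by DESeq2. At an unadjusted edgeR p under 0.05 there were 2 members and 835 genes. These were Itgax (0.71 ± 0.28), whose libraries did not overlap at 10.4 to 18.6 CPM against 6.53 to 8.99 CPM, as for 1.9% of all tested genes, and Itgav (0.48 ± 0.23). Itgal differed by 0.07 (95% interval -0.48 to 0.62) and Itga4 by -0.18 (95% interval -0.58 to 0.22).

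The change of the colour difference from 24h to 72h was tested directly. It was called for 2 members, both with a higher difference at 72h, against 0.436% of all tested genes in that direction and 0.332% in the other. Itgal changed by 1.75 ± 0.37 (edgeR adjusted p = 0.0281) and Itga4 by 1.38 ± 0.28 (edgeR adjusted p = 0.0217). Both were also called with the length offset (1.72 and 1.35) and with the Rn45s share in the fit (1.68 and 1.31). The share did not overlap between the colours at either time, so the Rn45s values carry the limit given above. Leaving out 1 library gave 0 to 2 calls. There were 0 without Kaede-green 24h replicates 2 or 3, Kaede-red 24h replicates 3 or 4 or Kaede-red 72h replicate 1. There was 1 without Kaede-green 72h replicates 2 or 3 or Kaede-red 72h replicate 2. Itgam (0.92 ± 0.27, edgeR adjusted p = 0.0782) and Itgb2 (0.67 ± 0.27, edgeR adjusted p = 0.229) missed the threshold, and Itgav changed by -0.15 ± 0.30.

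Because an alpha chain reaches the surface only with its beta chain, 8 ratios of partner transcripts were formed within each library, which removes the scaling of libraries. Itgax over Itgb2 was higher in Kaede-red cells, by 0.60 on the log2 scale (exact two-sided permutation p = 0.00204, Benjamini-Hochberg adjusted 0.0163 over 8 ratios), with 24h means of -2.82 ± 0.07 and -2.08 ± 0.24 in Kaede-green and Kaede-red libraries and 72h means of -2.30 ± 0.38 and -1.84 ± 0.32 (SD, n = 4). Itga4 over Itgb1 was lower by 0.63 (exact permutation p = 0.0122, adjusted 0.0490), and the difference was -1.24 at 24h, where the groups did not overlap, and -0.01 at 72h. Leaving out 1 library lost this call in 9 of 16 fits. With libraries blocked by replicate number neither ratio was called (exact sign-flip adjusted p = 0.0833 for Itgax over Itgb2 and 0.125 for Itga4 over Itgb1).

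Itga5 over Itgb1 differed by 0.59 (exact permutation adjusted p = 0.0664) and Itgal over Itgb2 by -0.43 (exact permutation adjusted p = 0.135). The latter difference was -0.95 at 24h, without overlap, and 0.09 at 72h. Itgam over Itgb2, the CD11b and CD18 pair, differed by 0.05 (exact permutation adjusted p = 0.686), with means of 0.30 to 0.49 in the 4 groups. The 3 remaining ratios, of Itga6 and Itgav over Itgb1 and Itgav over Itgb5, gave 0.41, -0.02 and -0.36 with exact permutation adjusted p of 0.163, 0.910 and 0.246. At a single time the smallest p that 4 against 4 libraries allow is 0.0286, and 0 ratios passed the adjustment there (smallest exact permutation adjusted p = 0.0762 at 24h and 0.229 at 72h).

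**Figure D3:**
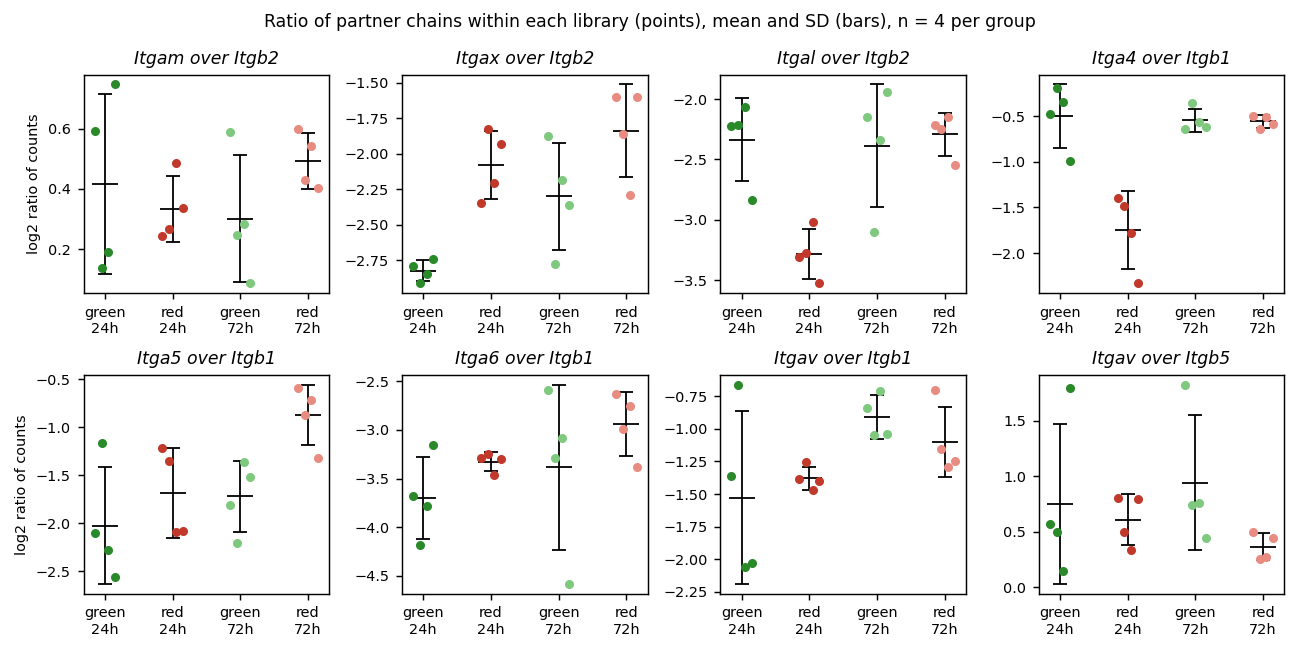
Log2 ratio of the counts of partner chains within each library (points, 0.5 added to each count) by group, with the mean and SD as bars (n = 4 libraries). Itgax over Itgb2 is higher in Kaede-red cells at both times in the mean, and Itga4 over Itgb1 and Itgal over Itgb2 are low in Kaede-red cells at 24h.

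Over the 16 libraries Itgam and Itgb2 had a Pearson r of 0.91 in log2 CPM, and 0.62 once group means were taken out. The genes most like each member by this measure, other integrins left out, were Trip12 (0.95) and Hcls1 for Itgam, Pabpc1 and Prex1 for Itgax, Irgm2 and Tnfrsf1a for Itgal, and Ptprc (0.97), which encodes CD45, and Pml for Itgb2. They were Cd177 and Ace for Itga4, Sdc3 (0.97) and Gnai2 for Itga5, Fnip2 and Mtss1 for Itga6, Rps6ka1 and Dgkh for Itgav, Xpo1 and Mtss1 for Itgb1, and 2510039O18Rik and Limd2 for Itgb5. All points share the group structure and the depth of their library, and the values are a description.

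Genes of the wider pathway were taken from 6 lists, to be read against the shares of all tested genes called higher and lower, which were 9.96% and 10.3% over both times, 3.2% and 4.3% at 24h, 8.07% and 8.76% at 72h and 4.91% and 3.76% over time in red libraries. With the Rn45s share in the fit 0 of the 27 genes named from these lists for both times were called (edgeR adjusted p from 0.0739 for Sirpa to 0.984 for C3). Of all 9642 tested genes 156 were called in that fit. With the length offset 27 of the 27 were called. They had been picked as called genes of low p in the same counts, so refits would mostly call them again. The values fell to 0.03 for Tln1, 0.03 for C3, 0.19 for Tgfbi and 0.37 for Apbb1ip with the Rn45s share, and Col4a2 turned to 0.12. The further integrin chains were mostly below the filter, with 4 of 17 tested. Itga9, an alpha chain that pairs with Itgb1, was higher in Kaede-red cells by 1.19 ± 0.24 over both times (edgeR adjusted p = 0.000491), with green and red levels of 4.69 ± 4.66 and 10.2 ± 1.77 CPM (24h) and of 6.76 ± 1.24 and 15.7 ± 1.28 CPM (72h). Itgb7, the other beta partner of Itga4, was at 10.1 ± 1.81 and 5.42 ± 2.45 CPM at 24h and at 9.51 ± 3.49 and 16.6 ± 3.46 CPM at 72h. It rose in Kaede-red cells from 24h to 72h by 1.55 ± 0.27 (edgeR adjusted p = 0.000990), exceeded its Kaede-green level at 72h by 0.81 ± 0.28 (edgeR adjusted p = 0.0413), and its colour difference changed by 1.66 ± 0.41 (edgeR adjusted p = 0.0483).

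Inside-out activation, by which talins and kindlins switch integrins to the ligand-binding state, held 24 tested genes. Over both times 6 rose and 2 fell with the red label, with a list median of 0.14, against 9.96% and 10.3% of all tested genes. Fermt3, the leukocyte kindlin, rose by 1.19 ± 0.21, Apbb1ip, the RIAM adaptor, by 0.73 ± 0.16, Tln1 (talin) by 0.62 ± 0.15 and Fyb by 0.59 ± 0.15, while Cytip fell by 0.55 and the small GTPase gene Rap1a fell by 0.50. Green and red levels of Tln1 were 47.4 ± 3.41 and 49.2 ± 12.8 CPM (24h) and 49.5 ± 10.2 and 113 ± 25.1 CPM (72h). At 24h Fermt3 was the only call (1.07 ± 0.31), at 72h 6 were higher and 1 lower, and in Kaede-red cells from 24h to 72h 7 rose and 3 fell.

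Of 36 tested genes of the adhesion complex and of signalling from bound integrins, 10 rose and 2 fell with the red label over both times, with a list median of 0.28, against 9.96% and 10.3% of all tested genes. Pik3cg, a PI3-kinase catalytic subunit of leukocytes, rose by 1.26 ± 0.21, Ptk2b, the kinase PYK2, by 0.68 ± 0.16, Tns3 by 0.65 ± 0.15 and the exchange factor Vav1 by 0.62 ± 0.15, and Crk fell by 0.67 and Src fell by 0.75. At 24h 1 was higher (Pik3cg, 1.23) and 1 lower (Zyx, -0.89), and at 72h 13 were higher and 2 lower. From 24h to 72h 12 rose and 0 fell in Kaede-red cells, and the colour difference of Zyx, the focal adhesion protein zyxin, changed by 1.56 ± 0.38 (edgeR adjusted p = 0.0483).

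Among 15 tested membrane partners 2 were higher and 2 lower over both times, near the 9.96% and 10.3% of all tested genes. Sirpa, the receptor for CD47, rose by 1.23 ± 0.15 (edgeR adjusted p = 2.17e-07), with 24h levels of 34.0 ± 10.1 (green) and 65.7 ± 13.7 CPM (red) and 72h levels of 39.5 ± 4.28 and 111 ± 13.8 CPM, and Slc3a2 (CD98) by 0.57 ± 0.13, while Cav1 fell by 1.01 and the urokinase receptor gene Plaur fell by 0.42. At 24h 3 were higher, Sirpa, Cd63 (0.94) and Slc3a2, and at 72h Sirpa and Slc3a2 were higher and Cav1 lower. In Kaede-red cells Sirpa (0.76) and Cd44 (0.72), a hyaluronan receptor, rose from 24h to 72h and the tetraspanins Cd9 and Cd63 fell, by 1.37 and 0.79, and the colour difference of Cd63 changed by -1.28 ± 0.31 (edgeR adjusted p = 0.0483).

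Transcripts of ligands were counted in the same CD11b+ cells. Of 11 tested cell surface and complement ligands 4 were higher and 1 lower over both times: Icam1 (0.83 ± 0.18), a ligand of alpha-L and alpha-M, the sheddases Adam17 (0.78 ± 0.17) and Adam8 (0.68 ± 0.14) and complement C3 (0.64 ± 0.17) rose, and Thy1 fell by 1.87, against 9.96% and 10.3% of all tested genes. At 24h none passed (Icam1 was at 0.21 ± 0.26), and at 72h 5 were higher and 1 lower. In Kaede-red cells C3 (1.33), Tgfb1 (1.07) and Icam1 (0.81) rose from 24h to 72h.

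Of the 16 tested matrix ligands 1 rose, 8 fell and 7 were not called with the red label over both times. The shares of all tested genes were 9.96% and 10.3%, and the list median was -0.75. Tgfbi, a secreted ligand of several integrins, rose by 0.84 ± 0.16, and Col1a2, Col1a1, Col4a1 and Col4a2 fell by 1.39, 1.12, 1.00 and 0.99. At 24h Spp1 (osteopontin, 0.77) was higher and Thbs1 (-1.10) lower. Over time in red libraries 3 rose, Tgfbi (1.21), Fn1 (fibronectin, 0.89) and Thbs1 (0.69), and 4 fell, Cyr61 by 1.48, Lamb1 by 1.24, Col4a1 by 1.17 and Spp1 by 0.88, named after their values were seen. The fibroblast marker list, which holds Col1a1, Col1a2 and Thy1 too, summed to 42.5 to 58.6 CPM in the 8 Kaede-green libraries, 20.7 to 39.1 CPM in Kaede-red libraries at 24h and 13.0 to 20.1 CPM at 72h, with 0 of its 8 markers at 0 in all libraries, and its part in these differences was not tested.

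**Figure D4:**
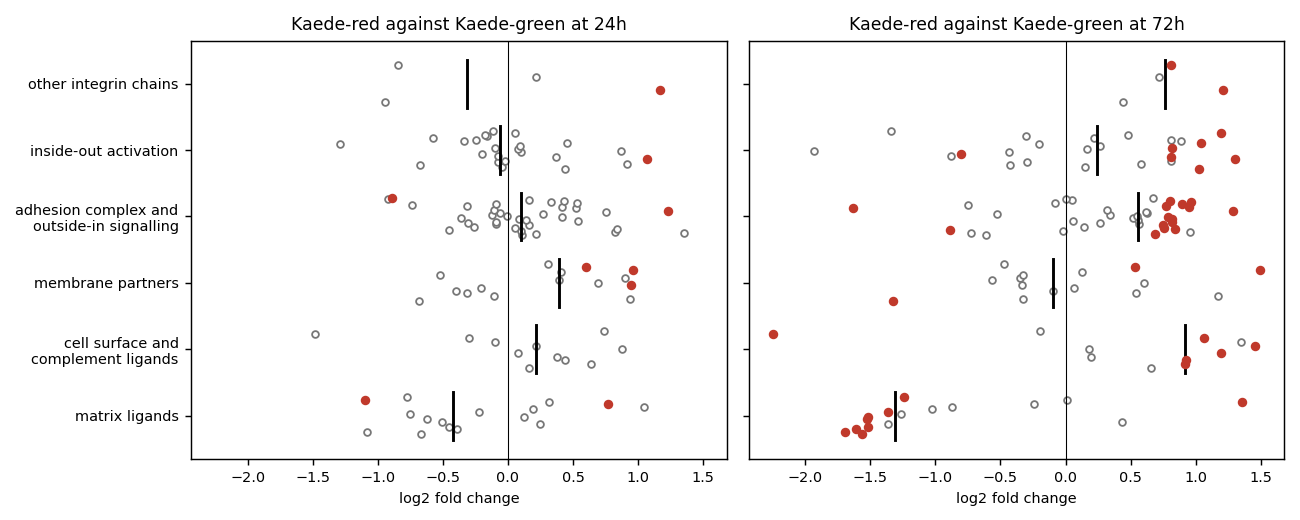
Log2 fold change of each tested gene (points) of the 6 lists for Kaede-red against Kaede-green cells at 24h and 72h. Filled points have an edgeR adjusted p under 0.05, and the black bar is the list median. Matrix ligands lie mostly left of 0 at 72h, with 8 genes lower and 1 higher, while 13 genes of the adhesion complex are higher.

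Some marker lists of other cells also moved with the groups. Platelet and megakaryocyte genes, which include Itga2b, summed to 0.817 to 6.69 CPM in Kaede-green libraries against 18.9 to 28.9 CPM in Kaede-red libraries at 24h and 6.76 to 18.9 CPM at 72h, with Pf4 the only one of 7 tested and Gp9 at 0 in all libraries. Of 3 tested endothelial genes Pecam1 (1.02) and Kdr (1.06) were called higher over both times and Cdh5 (-1.42, edgeR adjusted p = 0.0375) lower. The endothelial list summed to 9.75 to 19.2 CPM in Kaede-green, 18.1 to 22.7 CPM in Kaede-red 24h and 23.1 to 36.7 CPM in Kaede-red 72h libraries. Neutrophil genes were at 9.40 to 14.5 CPM in the first 3 groups and at 18.8 to 22.9 CPM in Kaede-red cells at 72h, with 7 of the 8 listed markers in the files. That group also held the highest mean of every integrin member. Of these neutrophil genes 2 were tested. At 72h Csf3r was called higher in Kaede-red cells (1.12, edgeR adjusted p = 0.000944) and Mmp8 was not called (1.29, edgeR adjusted p = 0.0539). The T and NK cell list had 7 of its 9 markers in the files and 1 tested. That was Cd4, called higher in Kaede-red cells over both times (2.46 ± 0.89, edgeR adjusted p = 0.0472). It was not called at 24h alone (edgeR adjusted p = 0.206) or at 72h alone (edgeR adjusted p = 0.252). The T and NK list summed to 1.63 to 5.71 CPM in Kaede-green and 0.876 to 3.09 CPM in Kaede-red libraries at 24h. At 72h its sums were 0 to 2.33 CPM (green) and 0.453 to 3.44 CPM (red), so the colours overlapped at both times. The part of all these cells in the integrin values was not tested.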

How the data were processed

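The authors used Trim Galore to trim the reads of stranded total RNA libraries, HISAT2 for alignment (build mm10) and featureCounts for gene counts. The deposited values are raw counts with no normalization, and 0 columns of values were left unused. The annotation and the strand setting are not given in the sources used here. Counts were fitted with edgeR 4.0.16 in R 4.3.3 (filterByExpr, TMM factors, quasi-likelihood test) with a mean for each of the 4 groups over 16 libraries, and p-values were adjusted by Benjamini-Hochberg over 9642 genes, with 0.05 as the threshold. CPM used TMM library sizes, and 95% intervals are the estimate ± 1.96 SE. Exon lengths come from GENCODE M21. Ratios of chains were compared by exact permutation of colours within time points (4900 relabellings). The tests were tested on simulated data. The members and gene lists were chosen with earlier results of these data known. All 10 members were named in every comparison, and from each list up to 4 called genes per direction by lowest p over both times, plus those called elsewhere where there were 5 or fewer. Alternatives were DESeq2 1.42.0, other scalings and filters, the Rn45s share, a replicate block, leaving out each library and, added after seeing the data, an offset for exon length. The 24 replicate pairs within groups differed by a chi-square per gene of 3.21 to 95.6, so no library was a copy of another in its group.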

Additional observations from a re-analysis of the deposited data

Results flagged for a closer look

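In groups of 4 libraries, 1 of the 72 groups examined held a library far from the others, where chance gives about 1 in 20 groups. It was Itga5 in Kaede-green cells at 24h, where replicate 2 had 14.7 CPM and the others 8.16 to 8.93 CPM. Without that library the 24h difference of Itga5 was 0.87 and was called (edgeR adjusted p = 0.0498). With all libraries it was 0.63 and not called (edgeR adjusted p = 0.136). Nor was it called in the 15 other fits that left out 1 library (edgeR adjusted p up to 0.333).

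The colour difference (red minus green) was not the same at 24h and 72h, by a test of the change itself, for 5 of the genes considered. These were 2 of the 10 members, 1 of 4 tested other integrin chains, 1 of 36 adhesion complex genes and 1 of 15 membrane partners. Among 24 tested genes of inside-out activation, 16 matrix ligands and 11 cell surface and complement ligands, 0 were called. Of all tested genes 0.436% were called higher and 0.332% lower. The change was 1.75 for Itgal (edgeR adjusted p = 0.0281), 1.38 for Itga4 (edgeR adjusted p = 0.0217), 1.66 for Itgb7, 1.56 for Zyx and -1.28 for Cd63, the last 3 at an edgeR adjusted p of 0.0483. With 1 library left out the call was lost in 8 of 16 fits for Itgal and in 5 of 16 for Itga4. For Itgb7, Zyx and Cd63 the change was not examined with 1 library left out. Itgb7 and Itga4 encode the partners of 1 heterodimer, and both were lower in the mean in Kaede-red than in Kaede-green cells at 24h and higher at 72h.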

How the results depend on the processing

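Recomputing 101 results gave 900 values under other settings, of which 36 changed direction, and 1616 values with 1 library left out, of which 21 did. Scaling by library size only, which leaves the Rn45s share in the totals, moved the median of all genes over both times to 2.20, called 9318 of 9328 genes higher (960 higher and 990 lower with TMM), and called 10 members over both times, 10 at 24h, 10 at 72h, 1 over time in the red libraries and 0 for the changed colour difference. With the Rn45s share in the fit 0, 2, 0, 3, 0 and 2 members were called in the 6 comparisons, and with the length offset 2, 2, 4, 6, 0 and 2, with 721 of 1873 genes called higher over both times and 260 of 820 at 24h (309 higher and 415 lower with TMM). For the change of the colour difference 74 genes were called, 42 of them higher, and 290 by DESeq2, 216 without a filter, 164 with a replicate block, 161 with at least 10 counts in every library, 132 (102 higher) with the length offset, 34 with the Rn45s share and 1 by library size only. Over all genes, library size only called 9052 at 24h, 8133 at 72h (778 higher and 845 lower with TMM) and 9 over time in red libraries (473 and 363 with TMM), the Rn45s share left 156 over both times, 206 at 24h, 102 at 72h and 110 over time in red libraries, and 1604 were called there from the red groups alone. Over time in green libraries 0 were called, and 12 by DESeq2, 37 without a filter and 36 by library size only.

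Under library size only, over both times, Itgal (2.02), Itga4 (1.91), Thy1 (0.24), Col1a1 (0.90), Col1a2 (0.66), Col4a1 (1.11), Col4a2 (1.06), Cytip (1.65), Rap1a (1.67), Crk (1.53), Src (1.32), Cav1 (1.03) and Plaur (1.72) turned positive, as did Itgam (2.35), Itgal (1.40) and Itga4 (1.41) at 24h and Itga4 (0.55) and Itgb1 (0.65) in Kaede-green cells over time, and the change of the colour difference turned negative for Itga6 (-0.078) and Itgb1 (-0.15). With the Rn45s share Col4a2 (0.12), Itgb2 at 24h (-0.27) and Itgal in Kaede-green cells (-0.033) turned. In Kaede-red cells over time Itgb1 turned to -0.013 with DESeq2, -0.015 with RLE factors, -0.030 with at least 10 counts and -0.0042 with the length offset, which also turned Itgb2 at 24h (-0.11) and Itgam (-0.042) and Itgal (-0.0053) in Kaede-green cells. Itgam at 24h was 0.11 with at least 10 counts and 0.068 without a filter, where Itgal over both times was 0.028. The cause was not tested.

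Without 1 library the members called ranged from 2 to 6 over both times, 1 to 3 at 24h (1 without Kaede-green replicate 3 or Kaede-red replicate 4), 4 to 6 at 72h, 5 to 6 in Kaede-red and 0 to 0 in Kaede-green cells over time, and 0 to 2 for the change. Ranges that crossed 0 were, over both times, Itgal (-0.21 to 0.0067); at 24h, Itgam (-0.10 to 0.075) and Itgb2 (-0.061 to 0.16); over time in Kaede-green cells, Itgal (-0.15 to 0.21), Itgb5 (-0.075 to 0.52), Itgam (-0.10 to 0.14) and Itga6 (-0.14 to 0.57); over time in Kaede-red cells, Itgb1 (-0.017 to 0.090); and for the change, Itga6 (-0.17 to 0.55). The ratio Itga4 over Itgb1 ranged from -0.71 to -0.53, Itga5 over Itgb1 from 0.50 to 0.74, Itgal over Itgb2 from -0.55 to -0.35 and Itgav over Itgb1 from -0.11 to 0.12.

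At 24h alone the ratios Itgam over Itgb2 (-0.083) and Itgav over Itgb1 (0.15) and at 72h alone Itgal over Itgb2 (0.095) turned, and Itgax over Itgb2 (0.74 and 0.46) and Itga4 over Itgb1 (-1.24 and -0.015) lost their calls. The replicate numbers were not taken to pair libraries, as the labels do not say whether they do. Same-numbered deviations correlated at 0.05 to 0.15 at 24h and at most 0.03 at 72h. The best match was the own number in 2 of 8 cases, replicates 1 and 4 at 24h. Such values cannot decide whether both colours came from 1 tumour. A replicate block gave 7, 3, 6, 6, 0 and 3 members in the 6 comparisons, and exact sign flips within numbers left Itgax over Itgb2 at 0.60 (exact adjusted p = 0.0833) and Itga4 over Itgb1 at -0.63 (exact adjusted p = 0.125), uncalled. Of the 27 list genes named for both times 25 kept their call with the block and 23 without a filter. These genes were chosen for a low p over both times in the same counts, so their kept calls are no added support. Depth limits Itga6 most, with 4 to 19 counts per Kaede-green library.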
